A study of Homo sapiens with 14 samples.

Results

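The genes described here are 37 protein-coding genes whose products make ribosomes in the nucleolus, followed in a human leukaemia cell line during treatment with a kinase inhibitor. They were chosen by name from knowledge of the pathway, with earlier results of these data known, and all 37 were found among the 39293 gene identifiers of the deposited table by matching Ensembl identifiers to symbols. By role they comprise 4 box C/D and 3 box H/ACA small nucleolar ribonucleoprotein (snoRNP) genes, 3 RNA polymerase I subunits, 11 genes for the small ribosomal subunit, 11 for the large subunit and 5 with several roles. All 37 passed the filter on low counts.

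Ribosomes are built mostly in the nucleolus, where RNA polymerase I copies ribosomal DNA into a long precursor RNA. Small nucleolar ribonucleoproteins guide methylation and pseudouridylation of that precursor, and a series of assembly factors fold it, cut it and load ribosomal proteins until separate small and large subunits are exported to the cytoplasm. The pathway is tied to cell growth, many of its genes are known targets of the transcription factor MYC, and in acute myeloid leukaemia the gene of the nucleolar protein nucleophosmin (NPM1) is itself a frequent site of mutation.

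MOLM14 is an acute myeloid leukaemia line that carries an internal tandem duplication in the receptor kinase FLT3, and gilteritinib inhibits FLT3 and AXL. Early resistant cultures (4 flasks per ligand) received FGF2, a fibroblast growth factor (FGF2 early), or FLT3's own ligand FL (FL early), at 10 ng/mL. Their labels read early flask plus 48 h of gilteritinib at 100 nM, so the 48 h do not describe how resistance arose. Time in culture before that is not stated here. The acute arm held 3 libraries of parental MOLM14 given 100 nM gilteritinib for 48 h, 1 with the drug alone, 1 with FGF2 and 1 with FL, each ligand at 10 ng/mL. Untreated parental MOLM14 gave 3 libraries. All cells are 1 line, and nothing in the labels says that the flasks or parental libraries were derived independently, so p-values may measure only the spread between these samples. The series was designed to set early resistant cells against acutely treated cells and against parental cells.

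Estimated counts per library totalled 25723575 to 33075041. The 37 genes took 0.787% to 0.870% of the counts in early flasks, 0.305% (drug alone), 0.444% (with FGF2) and 0.405% (with FL) in acute libraries, and 0.977% to 1.03% in parental libraries. All 10 myeloid leukaemia markers looked at were above 1 CPM in every library. Their summed level was 1012 to 1153 CPM in FGF2 early, 1869 to 2406 CPM in FL early, 1909 to 2230 CPM in acute and 1070 to 1100 CPM in parental libraries, and its part in the results below was not tested. Summed markers of T cells, B cells, erythroid cells, fibroblasts and epithelial cells reached at most 2.18 CPM per type. Within FL early, replicates 1 and 4 stood apart: the mean squared difference between libraries, over counting error, was 15.5 between replicates 2 and 3 and 41.7 to 56.1 in pairs with replicate 1 or 4, against 9.29 to 19.5 within FGF2 early. CPM here are counts scaled to a common depth with TMM library sizes. Values for the acute libraries are always given in the order drug alone, with FGF2, with FL, and for flasks and parental libraries in the order of replicate number.

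The whole group was lower in acutely treated cells than in parental cells. All 37 genes fell in acute libraries against parental libraries in edgeR's quasi-likelihood test, with Benjamini-Hochberg adjustment over 15756 genes at 0.05. Of all genes tested, 30.3% fell and 32.3% rose in the same comparison. The median log2 fold change of the 37 genes was −1.37, against 0.07 over all genes tested. BOP1, whose counts were unsteady within arms as described with the large subunit genes, had the largest fall, and without it all 36 other genes fell, by 0.60 (NOB1) to 2.26 (GAR1) on the log2 scale. In bulk RNA, fewer cells of a type and less RNA per cell cannot be told apart, and a share of total counts says nothing of RNA per cell. The share of counts from ribosomal protein genes was 16.2% to 19.5% in acute libraries and 10.6% to 12.8% elsewhere. With scaling factors computed without ribosomal protein and mitochondrially encoded genes all 37 genes again fell.

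**Figure D1:**
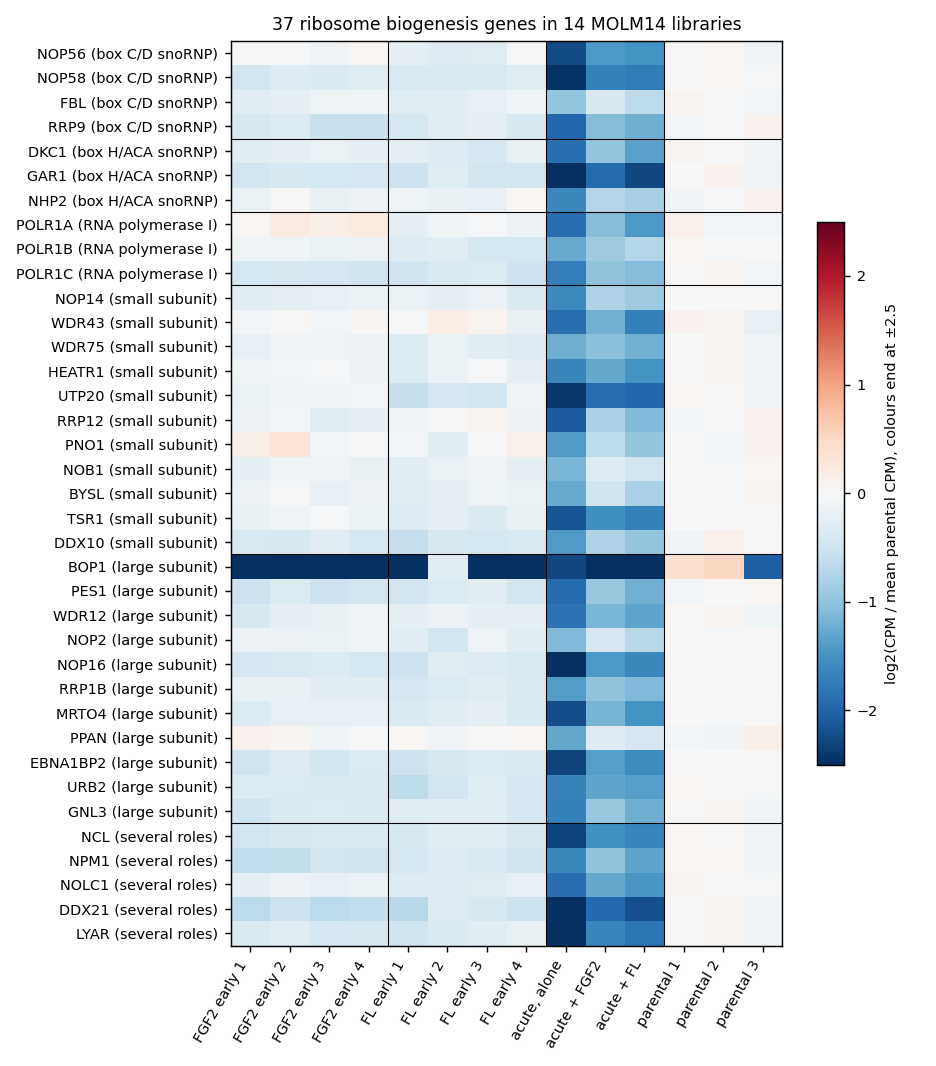
Heat map of 37 genes (down, grouped by role) in 14 libraries (across, early flasks first, then acute, then parental). Colour is log2 of CPM over the mean parental CPM, and the scale ends at ±2.5. The 3 acute columns are blue for every gene, with the library given the drug alone darkest in all genes but BOP1, and the early columns are mostly pale blue.

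The 4 box C/D genes encode the methylation-guide particles. FBL (ENSG00000105202), fibrillarin, the methyltransferase of these particles, had 366, 370.4, 407 and 404 CPM in FGF2 early flasks and 358, 369, 381 and 408 CPM in FL early flasks. FBL had 227, 333 and 281 CPM in acute libraries and 469, 433 and 423 CPM in parental libraries. Every acute library lay below every other library, although FBL had the third smallest fall of the 37 genes, a log2 fold change of −0.66 ± 0.11 (adjusted p = 0.000128) against parental cells. The early flasks lay below all parental libraries, but the difference of −0.21 ± 0.09 (adjusted p = 0.0995) did not pass the threshold.

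NOP56 (ENSG00000101361), a core protein that bridges the box C/D particle, had 448, 449, 429.9 and 477 CPM in FGF2 early flasks and 386, 365, 371 and 446 CPM in FL early flasks. NOP56 had 96.9, 169 and 162 CPM in acute libraries and 469, 474 and 433 CPM in parental libraries. The FGF2 early flasks overlapped the parental libraries, 3 of 4 FL early flasks lay below them, and the acute libraries lay far below all others. The acute change was −1.68 ± 0.16 (adjusted p = 4.53e-07), and the early change against parental cells was −0.13 ± 0.13 (adjusted p = 0.488). NOP58, the partner of NOP56 in the particle, ranged over 164 to 181 CPM in early flasks, 40.7 to 69.6 CPM in acute libraries and 219 to 231 CPM in parental libraries. It was among the genes that stayed below parental in early flasks, with −0.36 ± 0.11 (adjusted p = 0.0279), a call lost without FGF2 early flask 1 or any 1 of the 3 parental libraries (adjusted p = 0.0526 to 0.113). RRP9, a protein of the U3 particle that acts in cleavage of the precursor RNA, had 57.7 to 73.2 CPM in early flasks, 21.9 to 40.3 CPM in acute libraries and 80.8 to 91.1 CPM in parental libraries, and likewise fell in early flasks (−0.39 ± 0.13, adjusted p = 0.0352), a call lost without FGF2 early flask 1, 3 or 4, FL early flask 1 or any 1 of the 3 parental libraries (adjusted p = 0.0512 to 0.134).

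Box H/ACA particles guide pseudouridylation and also hold telomerase RNA. DKC1 (ENSG00000130826), dyskerin, their pseudouridine synthase, had 98.7, 102, 105 and 99.8 CPM in FGF2 early flasks and 99.6, 95, 88.7 and 105 CPM in FL early flasks. DKC1 had 32, 59.8 and 46.3 CPM in acute libraries and 125, 119 and 112 CPM in parental libraries. The 3 sets of levels did not overlap, with early flasks between acute and parental libraries. The acute change was −1.37 ± 0.16 (adjusted p = 3.23e-06), and the early difference from parental of −0.26 ± 0.12 (adjusted p = 0.134) did not pass.

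GAR1 (ENSG00000109534), a core protein of the same particles, fell more in acute cells than any other of the 37 genes but BOP1. It had 36.2, 37.7, 36.6 and 37.1 CPM in FGF2 early flasks and 34.9, 40.2, 36.2 and 36.3 CPM in FL early flasks. GAR1 had 7.77, 13.1 and 10.3 CPM in acute libraries and 50.04, 53.5 and 45.5 CPM in parental libraries. All early flasks lay below all parental libraries, and all acute libraries were lower still. Its log2 fold changes were −2.26 ± 0.14 (adjusted p = 8.29e-09) in acute against parental, 1.83 ± 0.13 (adjusted p = 1.76e-08) in early against acute and −0.43 ± 0.11 (adjusted p = 0.00923) in early against parental cells, the last lost without parental replicate 2 (adjusted p = 0.0676). NHP2, the third core protein, fell in acute libraries (41.8 to 76 CPM, against 120.04 to 137 CPM in parental libraries), while the 109 to 132 CPM of the early flasks overlapped the parental range.

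Of the RNA polymerase I genes, POLR1B (ENSG00000125630), the second largest subunit, had 113, 115, 111 and 113 CPM in FGF2 early flasks and 99.5, 103, 91.9 and 91.6 CPM in FL early flasks. POLR1B had 52.1, 66.3 and 74.8 CPM in acute libraries and 128, 121 and 124 CPM in parental libraries. The 2 early arms did not overlap, with FL flasks lower than FGF2 flasks and both below parental cells. The change against parental cells was −0.95 ± 0.10 (adjusted p = 1.65e-06) in acute libraries, −0.14 ± 0.09 (adjusted p = 0.286) in FGF2 early flasks and −0.37 ± 0.09 (adjusted p = 0.0146) in FL early flasks, the last lost without parental replicate 1 (adjusted p = 0.0644). In acute cells POLR1B was the 1 gene besides BOP1 that was not highest with FGF2.

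POLR1A (ENSG00000068654), the largest subunit, had 204, 229, 216 and 233 CPM in FGF2 early flasks and 169, 183, 189 and 177 CPM in FL early flasks. POLR1A had 52.9, 93.2 and 72.7 CPM in acute libraries and 213, 188 and 188 CPM in parental libraries. Both early arms overlapped the parental libraries, and the FGF2 flasks were all above the FL flasks. POLR1A fell in acute libraries (−1.43 ± 0.15, adjusted p = 1.09e-06), and its difference between early and parental cells was 0.02 ± 0.12 (adjusted p = 0.926). POLR1C, shared with RNA polymerase III, had 54.5 to 61.2 CPM in early flasks, 23.5 to 38.7 CPM in acute libraries and 73.9 to 81.3 CPM in parental libraries. Its fall in early flasks passed the threshold with either ligand, at −0.44 ± 0.12 with FGF2 (adjusted p = 0.0158) and −0.42 ± 0.12 with FL (adjusted p = 0.0274). The FGF2 call was lost without parental replicate 2 (adjusted p = 0.0665), and the FL call without FL early flask 1 or 4 or parental replicate 1 or 2 (adjusted p = 0.0534 to 0.108).

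**Figure D2:**
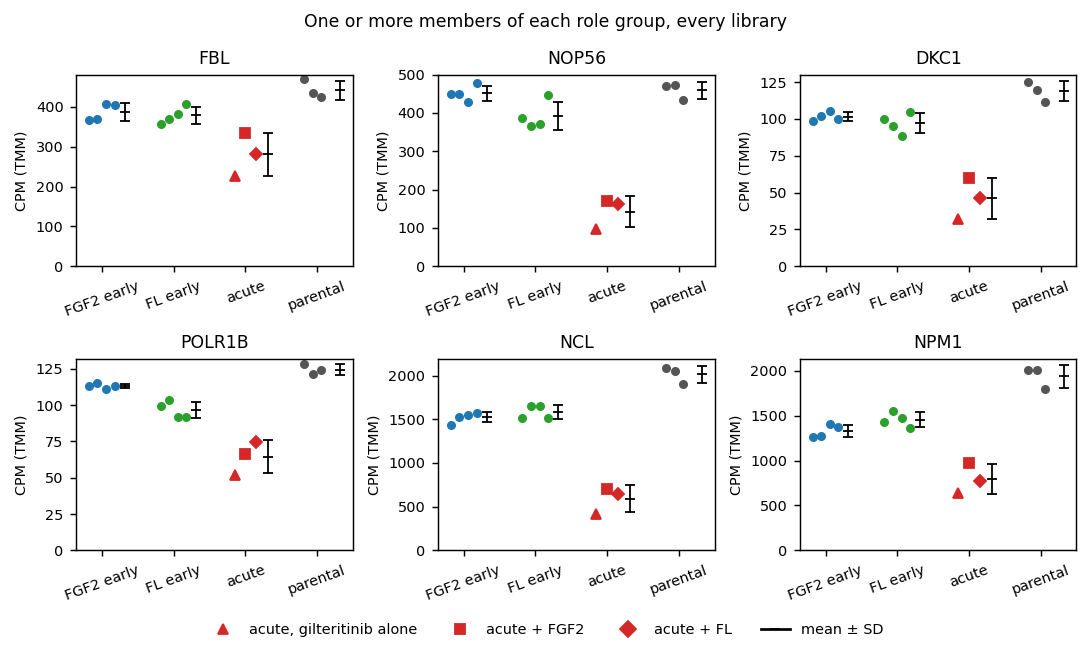
Expression in CPM (vertical axes, from 0) of FBL, NOP56, DKC1, POLR1B, NCL and NPM1 in each library by arm. Each point is 1 library, triangles, squares and diamonds mark acute cells with the drug alone, with FGF2 and with FL, and black bars are mean ± SD (n = 4, 4, 3 and 3). In all 6 panels every acute library lies below every early and parental library.

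The 11 small subunit genes include parts of the processome that forms on the precursor RNA and factors of late 40S maturation. UTP20 (ENSG00000120800), a large processome protein, had 156, 163, 164 and 166 CPM in FGF2 early flasks and 117, 129.9, 126 and 159 CPM in FL early flasks. UTP20 had 33, 46.8 and 44.9 CPM in acute libraries and 182, 177 and 166 CPM in parental libraries. FL early replicate 4 lay within the FGF2 early range and the other 3 FL flasks below it. UTP20 fell by 2.07 ± 0.13 on the log2 scale in acute libraries (adjusted p = 6.82e-09). Its change against parental cells was −0.11 ± 0.11 (adjusted p = 0.491) in FGF2 early and −0.40 ± 0.11 (adjusted p = 0.0254) in FL early flasks, the second lost without FL early flask 1 or 3 or parental replicate 1 or 2 (adjusted p = 0.0574 to 0.0974).

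WDR75 (ENSG00000115368), a subunit of the processome complex that links to transcription, had 72.6, 78.9, 76.9 and 75.8 CPM in FGF2 early flasks and 66.6, 74.4, 69.3 and 67.2 CPM in FL early flasks. WDR75 had 36.2, 40.7 and 36.6 CPM in acute libraries and 84.3, 89.1 and 78.3 CPM in parental libraries. The FL flasks were all below the parental libraries, while 1 FGF2 flask was within their range. WDR75 fell with FL (−0.27 ± 0.07, adjusted p = 0.0128) and had −0.14 ± 0.07 (adjusted p = 0.13) with FGF2. The FL call was lost without parental replicate 1 or 2 (adjusted p = 0.0527 to 0.0792). NOB1 (ENSG00000141101), the nuclease that makes the final cut at the end of 18S RNA, had 90.8, 98.9, 100.2 and 94.9 CPM in FGF2 early flasks and 90.04, 96.7, 101 and 93.2 CPM in FL early flasks. NOB1 had 48.9, 86.3 and 79 CPM in acute libraries and 108, 105 and 111 CPM in parental libraries. The acute library with FGF2 came close to the lowest early flasks, and NOB1 had the smallest acute fall of the group, −0.60 ± 0.15 (adjusted p = 0.00252).

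The other 8 small subunit genes all fell in acute libraries. HEATR1 and WDR43, both of the transcription-linked processome complex, fell by 1.46 ± 0.09 and 1.56 ± 0.15 on the log2 scale. HEATR1 had 238 to 294 CPM in early flasks, 96.9 to 124 CPM in acute and 281 to 319 CPM in parental libraries. WDR43 had 139 to 179 CPM in early flasks, 42.8 to 68.7 CPM in acute and 138 to 169.8 CPM in parental libraries. NOP14, a processome protein, had 120.2 to 139.7 CPM in early flasks, 51 to 90.1 CPM in acute and 152 to 155 CPM in parental libraries. TSR1, which sits on late 40S precursors, had 155 to 196 CPM in early flasks, 44.8 to 68.7 CPM in acute and 198 to 201 CPM in parental libraries. RRP12, an export factor, had 195 to 249 CPM in early flasks, 54.8 to 133 CPM in acute and 222 to 253 CPM in parental libraries. For these 5 genes no acute library reached an early flask. PNO1, the partner of NOB1, had 31.3 to 47 CPM in early flasks, 14.2 to 24.2 CPM in acute and 35.8 to 40.5 CPM in parental libraries. BYSL, bystin, had 55.3 to 65.8 CPM in early flasks, 28.2 to 48 CPM in acute and 66.3 to 70.7 CPM in parental libraries. DDX10, an RNA helicase, had 37 to 44.9 CPM in early flasks, 20.6 to 32.3 CPM in acute and 51.9 to 59.97 CPM in parental libraries, and it alone of these 8 also fell in early against parental cells (−0.41 ± 0.10, adjusted p = 0.00877), a call lost without parental replicate 2 (adjusted p = 0.0706).

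Among the 11 large subunit genes, PES1, BOP1 and WDR12 form the PeBoW complex, which is needed for processing of the large subunit RNAs. PES1 had 145 to 172 CPM in early flasks, 54.9 to 107 CPM in acute and 199 to 216 CPM in parental libraries. WDR12 had 89.3 to 108 CPM in early flasks, 32.8 to 53.7 CPM in acute and 109 to 124 CPM in parental libraries. Both fell in acute libraries, PES1 by 1.31 ± 0.17 and WDR12 by 1.40 ± 0.14 on the log2 scale, and PES1 also fell in early against parental cells (−0.42 ± 0.13, adjusted p = 0.0296), a call lost without FGF2 early flask 1 or any 1 of the 3 parental libraries (adjusted p = 0.0522 to 0.0996).

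BOP1 (ENSG00000261236) did not behave as a single level within an arm. It had 1.60, 0.946, 1.03 and 0.989 CPM in FGF2 early flasks and 1.38, 12.4, 1.30 and 1.74 CPM in FL early flasks. BOP1 had 3.12, 0.584 and 0.577 CPM in acute libraries and 20.1, 21.7 and 3.67 CPM in parental libraries. Parental replicate 3 was far below the other 2, and FL early replicate 2 far above the other 3. Its fitted change in acute against parental cells was −3.39 ± 0.97 (adjusted p = 0.00732), and it was −2.31 (adjusted p = 0.186) when the acute arm was the single library with the drug alone, which that fit assumes to vary like the other arms. Whether its reads were split between identifiers that share its sequence was not tested, so BOP1 is reported as uncertain and counts are given with and without it.

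URB2 (ENSG00000135763) is an early large subunit factor. It had 78, 77.9, 75.5 and 75.8 CPM in FGF2 early flasks and 63.9, 71.1, 80.8 and 73.8 CPM in FL early flasks. URB2 had 31.2, 39.6 and 38.3 CPM in acute libraries and 102, 98 and 97.1 CPM in parental libraries. The early flasks lay between acute and parental libraries without overlap. URB2 fell against parental cells in acute libraries (−1.45 ± 0.10, adjusted p = 1.33e-08), in FGF2 early flasks (−0.37 ± 0.09, adjusted p = 0.00587) and in FL early flasks (−0.45 ± 0.09, adjusted p = 0.0031). RRP1B (ENSG00000160208), a large subunit factor that also binds chromatin, had 123, 121, 116 and 115 CPM in FGF2 early flasks and 104, 109, 114 and 108 CPM in FL early flasks. RRP1B had 52.4, 68.8 and 64.5 CPM in acute libraries and 138, 138 and 140.4 CPM in parental libraries. It showed the same order of arms as URB2, and the early changes were −0.23 ± 0.08 (adjusted p = 0.0411) with FGF2 and −0.35 ± 0.08 (adjusted p = 0.00717) with FL. The FGF2 call was lost when any 1 library of that comparison was left out (adjusted p = 0.0663 to 0.104), and the FL call was not lost.

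PPAN (ENSG00000130810), the human homologue of yeast SSF1, had 116, 113, 98.9 and 105 CPM in FGF2 early flasks and 111, 99.99, 106 and 111 CPM in FL early flasks. PPAN had 44.2, 85.3 and 79.4 CPM in acute libraries and 102, 101 and 118 CPM in parental libraries. Early and parental levels overlapped throughout, and the acute change of −0.62 ± 0.17 (adjusted p = 0.00654) was the second smallest of the group. PPAN is uncertain because a read-through transcript with its neighbour P2RY11 has an identifier of its own, which held 15.7% to 46.3% as many counts as PPAN. In acute cells PPAN and NOP16 were among the genes that differed most between the drug alone and the drug with a ligand.

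The other 5 large subunit genes all fell in acute libraries, by between 0.71 ± 0.13 (NOP2) and 1.84 ± 0.24 (NOP16) on the log2 scale. NOP16 had 77.4 to 90.8 CPM in early flasks, 15.6 to 41.4 CPM in acute and 109.7 to 113 CPM in parental libraries. NOP2, a methyltransferase of 28S RNA, had 123 to 156 CPM in early flasks, 78.7 to 125 CPM in acute and 166 to 172 CPM in parental libraries. MRTO4, a placeholder on the precursor for the ribosomal stalk protein, had 115 to 131 CPM in early flasks, 32.2 to 67.1 CPM in acute and 147 to 154 CPM in parental libraries. For these 3 genes early flasks lay below all parental libraries, but none passed the threshold in early against parental cells. EBNA1BP2, an early 60S factor, had 75.8 to 86.1 CPM in early flasks, 21.6 to 41.4 CPM in acute and 107 to 109.6 CPM in parental libraries. GNL3, nucleostemin, a nucleolar GTPase of stem and tumour cells, had 175 to 206 CPM in early flasks, 76.7 to 129 CPM in acute and 228 to 260.02 CPM in parental libraries. Both fell in early against parental cells, by 0.40 ± 0.13 and 0.35 ± 0.11 on the log2 scale (adjusted p = 0.0309 and 0.0264). EBNA1BP2 did not pass without FGF2 early flask 1 or 3 or any 1 of the 3 parental libraries (adjusted p = 0.0506 to 0.0935), nor GNL3 without parental replicate 1 or 2 (adjusted p = 0.101 to 0.121).

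The 5 genes of several roles had the largest median acute fall of the 6 role groups, 1.77 on the log2 scale, against 1.15 for the small subunit genes, and this order was not tested. NCL (ENSG00000115053), nucleolin, which binds the precursor RNA and nucleolar chromatin, had 1438, 1529, 1545 and 1573 CPM in FGF2 early flasks and 1518, 1649, 1647 and 1518 CPM in FL early flasks. NCL had 413, 707 and 650.01 CPM in acute libraries and 2087, 2048 and 1907 CPM in parental libraries. The arms were ordered acute, early, parental with no overlap. NCL fell in acute against parental cells (−1.77 ± 0.15, adjusted p = 1.19e-07), and its early change was −0.38 ± 0.12 (adjusted p = 0.0246), a call lost without parental replicate 1 or 2 (adjusted p = 0.0942 to 0.102).

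NPM1 (ENSG00000181163), nucleophosmin, an abundant nucleolar chaperone, had 1261, 1278, 1406 and 1373 CPM in FGF2 early flasks and 1430.1, 1552, 1479.6 and 1364 CPM in FL early flasks. NPM1 had 634, 969 and 776 CPM in acute libraries and 2009, 2013 and 1793 CPM in parental libraries. The early flasks again lay between the other arms. NPM1 fell by 1.29 ± 0.12 on the log2 scale in acute libraries (adjusted p = 4.68e-07), and its early changes against parental cells were −0.54 ± 0.11 (adjusted p = 0.00245) with FGF2 and −0.41 ± 0.11 (adjusted p = 0.0188) with FL, the second lost without parental replicate 1 or 2 (adjusted p = 0.0785 to 0.0825). Per kilobase of transcript it had the highest level of the group, 939 ± 65.7 CPM per kilobase in early, 535 ± 113 in acute and 1307 ± 84.9 in parental libraries (SD, n = 8, 3 and 3), and NCL had 385 ± 17.5 in early, 146 ± 38.6 in acute and 499 ± 23.5 in parental libraries. NCL was second in early and parental libraries, and FBL was second in acute libraries (242 ± 45.8).

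DDX21 (ENSG00000165732), an RNA helicase that couples polymerase I and II transcription to rRNA processing, had 619.8, 681, 618 and 635 CPM in FGF2 early flasks and 601, 776, 735 and 673 CPM in FL early flasks. DDX21 had 146, 255 and 214 CPM in acute libraries and 982, 1026 and 914 CPM in parental libraries. Its acute levels were the lowest relative to parental cells after those of BOP1 and GAR1 (−2.25 ± 0.16, adjusted p = 2.45e-08), and no early flask reached a parental library. The early changes were −0.61 ± 0.14 (adjusted p = 0.00499) with FGF2 and −0.48 ± 0.14 (adjusted p = 0.0261) with FL, the second lost without FL early flask 1 or parental replicate 1 or 2 (adjusted p = 0.0655 to 0.104). NOLC1, a chaperone of snoRNPs, had 398 to 449 CPM in early flasks, 132 to 204 CPM in acute and 485 to 517 CPM in parental libraries. LYAR, a nucleolar zinc-finger protein, had 45.5 to 56.9 CPM in early flasks, 11.4 to 20.8 CPM in acute and 60.4 to 68.1 CPM in parental libraries. Both fell in acute libraries, and neither passed the threshold in early against parental cells (adjusted p = 0.0732 and 0.0537). Both fell there when edgeR was fitted without the acute libraries (adjusted p = 0.0024 and 0.0034) and with DESeq2 (adjusted p = 0.0379 and 0.0267).

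Within the acute arm, the ligands went with higher levels of the group. Relative to the parental mean, the median of the 36 genes other than BOP1 was 27.4% with the drug alone, 47.9% with FGF2 and 40.2% with FL. All 36 were lowest in the library with the drug alone, and 35 were highest with FGF2, the exception being POLR1B. The share of all genes tested with this order was not counted. With 1 library per state there is no replicate check, and the ligand states were not tested against each other. A difference of at least 0.5 in log2 CPM over the drug alone was reached upward by 31 of 37 genes with FGF2 and by 19 of 37 with FL, where 14% and 12.8% of all genes tested did so. BOP1 was the 1 gene lower by that much with either ligand. The median difference from the drug alone was 0.77 with FGF2 and 0.52 with FL, against 0.03 and 0.02 over all genes tested. Apart from BOP1, NOP16 differed most, at 1.41 with FGF2 and 1.22 with FL, followed by RRP12 at 1.28 and 0.98. WDR75 differed least with either ligand (0.17 and 0.02). No gene differed by 0.5 between FL and FGF2, and the median FL difference from FGF2 was −0.18. These ligand states are inside the acute arm of the fit, so its spread includes them.

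**Figure D3:**
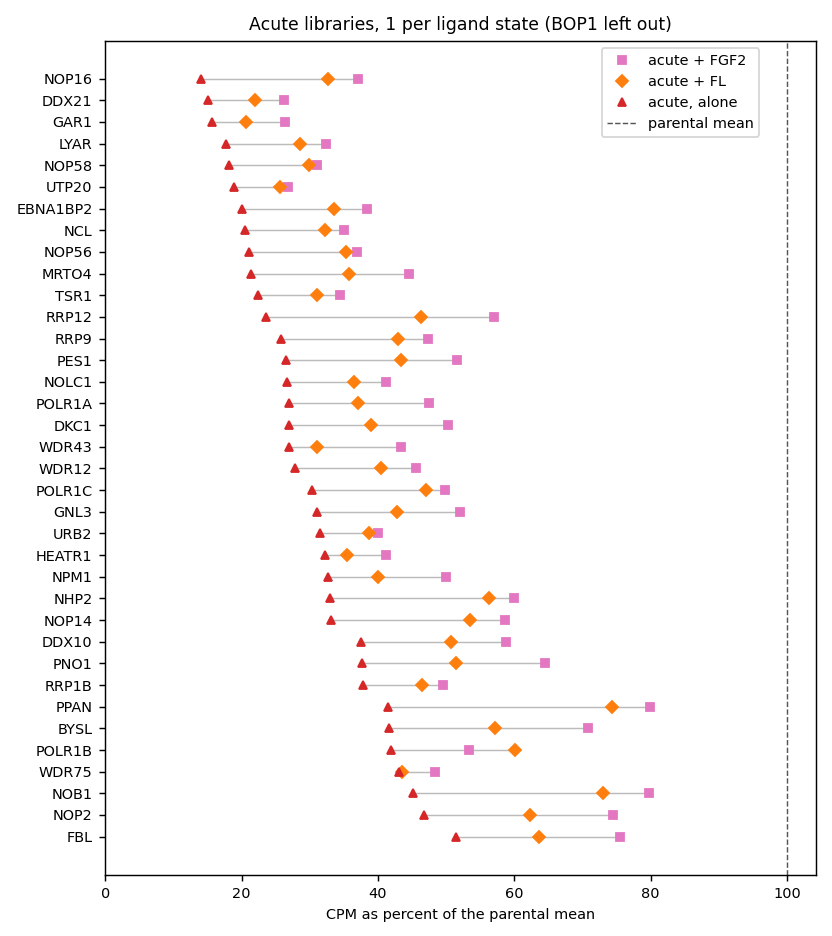
CPM of 36 genes in each acute library as percent of the parental mean (horizontal axis), 1 row per gene, sorted by the level with the drug alone. Triangles (drug alone) run from 14% (NOP16) to 51.4% (FBL), every triangle is the leftmost symbol of its row, and no symbol reaches the dashed parental mean at 100%.

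Early resistant cells, compared with acutely treated cells, had the group at higher levels. Of 37 genes 36 rose in early against acute cells and 0 fell, where 32.1% of all genes tested rose and 33.9% fell (edgeR, adjusted p under 0.05). The median log2 fold change was 1.04, against −0.04 over all genes tested. The gene that did not pass was BOP1 (0.61 ± 0.81, adjusted p = 0.528). GAR1 (1.83 ± 0.13), UTP20 (1.82 ± 0.11) and DDX21 (1.70 ± 0.14) rose most, and NOB1 (0.42 ± 0.12), FBL (0.45 ± 0.09) and NOP2 (0.50 ± 0.11) least. This comparison shares its acute libraries with the comparison of acute and parental cells, so the 2 sets of values are not independent. With the acute arm reduced to the single library given the drug alone, the median was 1.53. That fit assumes the lone library to vary like the libraries of the other arms. All early flasks received a ligand, so this library is not matched to them. The median of 36 genes was 47.9% of the parental mean in the acute library with FGF2, beside 83.0% to 87.4% in FGF2 early flasks. It was 40.2% in the acute library with FL, beside 79.6% to 82.4% in FL early flasks.

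Against untreated parental cells the early flasks stayed slightly low. In early against parental cells 16 of 37 genes fell and 0 rose (15 of 36 without BOP1), where 16.1% of all genes tested fell and 13.7% rose. The median log2 fold change was −0.25, against 0.01 over all genes tested. Those 16 were NOP58, RRP9, GAR1, POLR1B, POLR1C, WDR75, DDX10, BOP1, PES1, RRP1B, EBNA1BP2, URB2, GNL3, NCL, NPM1 and DDX21. By role, 6 of 11 large subunit genes (BOP1 among them), 3 of 5 with several roles and 2 of 3 RNA polymerase I genes fell. Of box C/D genes 2 of 4 fell and of box H/ACA genes 1 of 3. Small subunit genes (2 of 11) were near the share over all genes, and differences between roles were not tested. Fitted without the acute libraries, NOP14, UTP20, NOB1, BYSL and TSR1 of the small subunit also fell, as did WDR12, NOP2, NOP16 and MRTO4 of the large subunit. In that fit FBL, DKC1, NOLC1 and LYAR fell as well. The levels of WDR43 (0.00 ± 0.12, adjusted p = 0.986), PPAN (0.01 ± 0.14, adjusted p = 0.965), POLR1A (0.02 ± 0.12, adjusted p = 0.926) and PNO1 (0.03 ± 0.13, adjusted p = 0.905) were nearest to parental. The median gene stood at 83.0% to 87.4% of the parental mean in FGF2 early flasks and at 79.6% to 82.4% in FL early flasks, against 97.9% to 101% in the parental libraries themselves. The number of calls differed with the libraries fitted, and the cause was not tested. Fitted without the acute libraries, 29 genes fell, where 2764 of 15249 genes tested fell. Without FL early replicates 1 and 4, which stood apart from the other FL flasks, 10 fell, where 2527 of 16161 genes tested did. Without parental replicate 1 there were 8, where 1621 of 16220 genes tested fell. Without parental replicate 2 there were 5, where 1549 of 16212 genes tested fell. With all 14 libraries 2540 of 15756 genes tested fell. Of the 16 calls, 5 passed whichever 1 library was left out (BOP1, RRP1B, URB2, NPM1 and DDX21) and 11 were lost without at least 1 library. That of POLR1B was lost without any 1 of the 4 FGF2 early libraries, FL early flask 3 or any 1 of the 3 parental libraries (adjusted p = 0.0503 to 0.131), that of WDR75 without parental replicate 1 or 2 (adjusted p = 0.0758 to 0.129) and that of POLR1C without parental replicate 2 (adjusted p = 0.0551).

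Taken by ligand, 13 of 37 genes fell in FGF2 early flasks and 0 rose (12 of 36 without BOP1), where 17.1% of all genes tested fell and 13.3% rose. In FL early flasks 10 of 37 fell and 0 rose, where 9.76% of all genes tested fell and 10.9% rose. Both comparisons use the same parental libraries. The medians were −0.23 with FGF2 and −0.31 with FL. Fitted on only the libraries compared, 25 genes fell and POLR1A rose with FGF2, and 22 fell with FL. Of all genes tested in those fits, 3564 of 14749 fell and 3193 rose with FGF2, and 1168 of 14819 fell with FL. Leaving out any 1 library of the comparison left 4 to 9 calls with FGF2, the fewest without parental replicate 2 (4) and 6 each without FGF2 early replicate 1 or 4 or parental replicate 1. Without parental replicate 2, 1963 of 16212 genes tested fell, so the 4 calls of 37 were near the share over all genes. Of all genes tested, 2137 of 15698 fell without FGF2 early replicate 1 and 2275 of 15715 without FGF2 early replicate 4. Without parental replicate 1, 2005 of 16220 fell. The 6 calls of 37 in each of those fits were also near the share over all genes. Without FGF2 early replicate 2 or 3 there were 8, where 2263 of 15747 and 2311 of 15732 genes tested fell. With FL there were 6 calls without FL early replicate 1 and 3 without parental replicate 1 or 2, and 3 without FL early replicates 1 and 4 together. Of all genes tested, 1210 of 15725 fell without FL early replicate 1, 795 of 16220 without parental replicate 1 and 717 of 16212 without parental replicate 2. Without FL early replicates 1 and 4, 1221 of 16161 fell, so the 3 calls of 37 there were near that share.

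**Figure D4:**
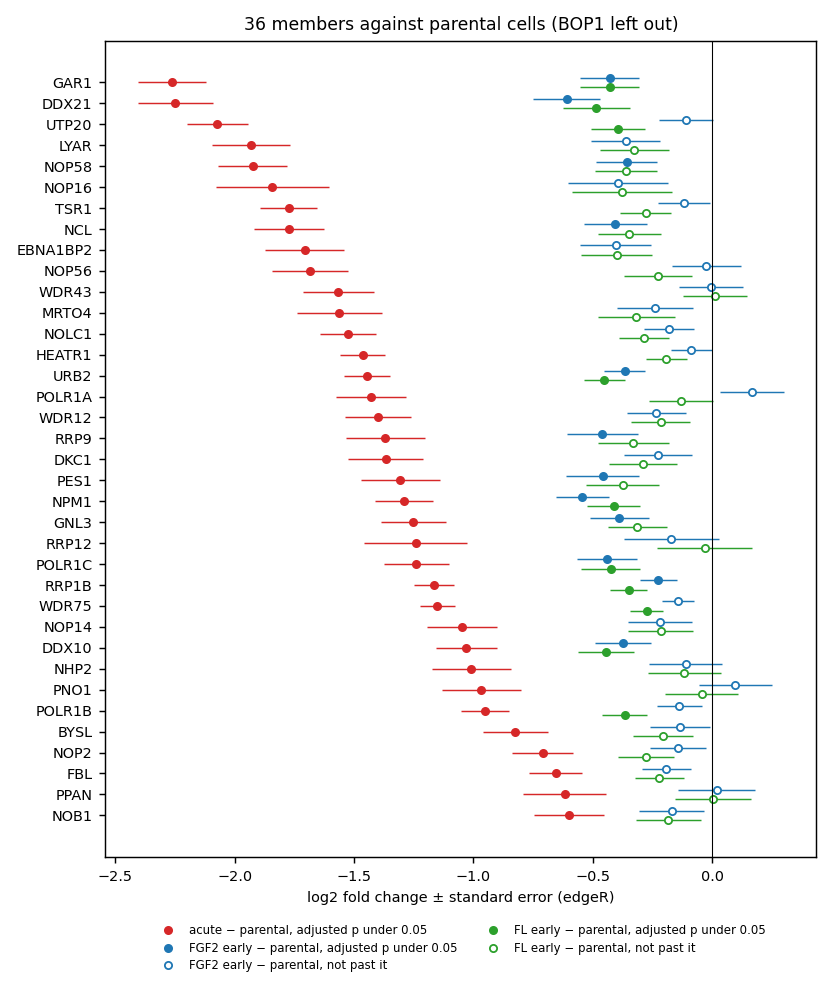
Log2 fold change against parental cells (horizontal axis) with standard error for 36 genes, sorted by the acute change. Red is acute, blue FGF2 early and green FL early, and filled points passed an adjusted p of 0.05. All red points are filled and lie between −2.26 and −0.60, and the early points lie between −0.61 and 0.17.

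The 2 early arms were compared with each other to see whether the ligand mattered for the group. None of the 37 genes passed the threshold in FGF2 early against FL early flasks, by edgeR, DESeq2 or limma-voom, where 4% of all genes tested were higher and 9.56% lower with FGF2. At an unadjusted p under 0.05 there were 4 (UTP20, POLR1B, POLR1A and BOP1). The smallest adjusted p belonged to UTP20 (0.28 ± 0.11, adjusted p = 0.0912), POLR1B (0.23 ± 0.09, adjusted p = 0.0983) and POLR1A (0.30 ± 0.12, adjusted p = 0.132), which were higher with FGF2. Apart from BOP1 (−1.88 ± 0.82, adjusted p = 0.153), log2 differences ran from −0.14 to 0.30 with a median of 0.01. Fitted on these 8 flasks alone, POLR1A and POLR1B passed (adjusted p = 0.0206 and 0.0379), where 453 of 14512 genes tested were higher with FGF2 and 1011 lower. UTP20 passed without FL early replicate 4, where 1214 of 15703 genes tested were higher with FGF2 and 2060 lower. Without FL early replicates 1 and 4 UTP20 was higher and BOP1 lower with FGF2. Of 16161 genes tested there, 1299 were higher and 2199 lower. With flasks left out in these ways, the calls were below the share over all genes.

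The wider pathway, taken from lists of genes outside the 37, moved in the same direction in acute cells for most genes. Of 44 other genes of the small subunit processome and 40S assembly, 35 fell and 0 rose in acute against parental cells, and this and the counts of the other lists stand beside 30.3% of all genes tested that fell and 32.3% that rose. NOL10, a processome protein, fell by 1.48 ± 0.09 on the log2 scale, to 23.1 ± 2.84 CPM in acute cells, against 64.3 ± 2.43 CPM in parental cells (SD, n = 3 each). UTP18 and RRP7A, of the same assembly, changed by −1.21 ± 0.08 (adjusted p = 1.19e-08) and −1.39 ± 0.09 (adjusted p = 1.2e-08). Of 50 other 60S assembly genes 40 fell and 2 rose. BRIX1 had the largest fall of those named, −2.67 ± 0.16 (adjusted p = 4.18e-09), and NOC3L and DDX18 changed by −1.62 ± 0.10 (adjusted p = 7.76e-09) and −1.30 ± 0.08 (adjusted p = 9.77e-09). The 2 that rose were NOP53 (836 ± 102 CPM in acute and 326 ± 14.5 CPM in parental cells) and WDR74 (143 ± 83.7 CPM in acute and 58.8 ± 2.56 CPM in parental cells), with log2 fold changes of 1.36 ± 0.13 (adjusted p = 5.74e-07) and 1.28 ± 0.27 (adjusted p = 0.000871).

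All 10 tested genes of snoRNP components and assembly fell in acute cells, among them NUFIP1 (−1.40 ± 0.12, adjusted p = 1.23e-07), ZNHIT6 (−1.06 ± 0.09, adjusted p = 2.6e-07) and TCOF1 (−1.48 ± 0.13, adjusted p = 2.89e-07), whose product treacle also serves rDNA transcription. Of 25 genes of the RNA exosome and pre-rRNA nucleases 20 fell and 1 rose. EXOSC9 (−1.51 ± 0.08, adjusted p = 1.6e-09), DIS3 (−1.09 ± 0.06, adjusted p = 2.71e-09) and MTREX (−1.30 ± 0.07, adjusted p = 3.19e-09), subunits and helicase of the exosome, fell, and RPP25L rose (0.51 ± 0.11, adjusted p = 0.001). Of 12 other genes of the RNA polymerase I machinery 8 fell and 1 rose. POLR1F (−2.07 ± 0.17, adjusted p = 9.41e-08) and POLR1G (−1.31 ± 0.14, adjusted p = 2.28e-06), subunits, and RRN3 (−0.92 ± 0.10, adjusted p = 2.11e-06), the initiation factor that reads growth signals, fell, and TAF1C, a promoter selectivity factor, rose (0.59 ± 0.16, adjusted p = 0.00434).

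In early against acute cells the same lists went up: 35 of 44 small subunit, 42 of 50 large subunit, 10 of 10 snoRNP, 22 of 25 exosome and 8 of 12 polymerase I genes rose, and 2, 3, 0, 1 and 1 fell, beside 32.1% and 33.9% of all genes tested. In early against parental cells 12, 18, 6, 5 and 4 of them fell and 1, 0, 0, 0 and 1 rose, beside 16.1% and 13.7% of all genes tested, so that the exosome list (5 of 25) was near the share over all genes. The lowest adjusted p of each list there belonged to DDX47 (−0.49 ± 0.08, adjusted p = 0.000528), GNL2 (−0.43 ± 0.08, adjusted p = 0.00166), SNU13 (−0.34 ± 0.08, adjusted p = 0.00573), RPP30 (−0.96 ± 0.10, adjusted p = 3.3e-05) and POLR1G (−0.48 ± 0.11, adjusted p = 0.007).

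Cytosolic ribosomal protein genes, the structural parts that the 37 genes help to assemble, went the other way in acute cells. Of 76 such genes 58 rose and 4 fell in acute against parental cells, where 32.3% of all genes tested rose and 30.3% fell, with a median log2 fold change of 0.47. RPS27 had 4512 ± 194 CPM in acute cells and 1802 ± 67.1 CPM in parental cells, with 1.32 ± 0.10 (adjusted p = 3.17e-08), and RPS19 and RPS10 changed by 1.10 ± 0.10 (adjusted p = 3.99e-07) and 0.80 ± 0.09 (adjusted p = 2.22e-06). RPS26 (−1.04 ± 0.14, adjusted p = 1.36e-05), RPL21 (−0.95 ± 0.14, adjusted p = 5.07e-05) and RPSA (−0.39 ± 0.12, adjusted p = 0.0117) fell, and such genes have many processed copies that can take reads. In early against acute cells 68 of 76 fell and 2 rose, where 33.9% of all genes tested fell and 32.1% rose. In early against parental cells 25 of 76 fell and 1 rose, where 16.1% of all genes tested fell and 13.7% rose. Their median there was −0.20, the direction of the 37 genes. In FGF2 early flasks 29 of 76 fell, where 17.1% of all genes tested fell. In FL early flasks only 5 of 76 fell, where 9.76% of all genes tested fell, with a median of −0.16. Levels of these genes are relative to TMM-scaled library sizes, whose total counts include the ribosomal protein transcripts themselves.

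**Figure D5:**
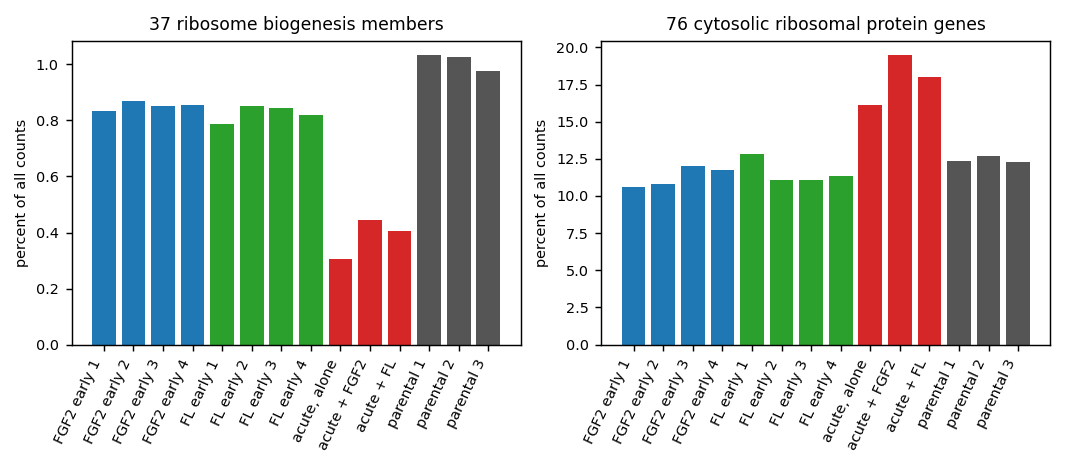
Percent of all counts of a library (vertical axes, from 0) held by the 37 genes (left) and by 76 ribosomal protein genes (right), 1 bar per library, blue FGF2 early, green FL early, red acute, grey parental. The 3 acute libraries are the lowest at left (0.305% to 0.444%) and the highest at right (16.2% to 19.5%).

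MYC, the transcription factor that is known to act on many of these genes, had 688, 688, 610.5 and 599 CPM in FGF2 early flasks and 550.1, 533, 587 and 562 CPM in FL early flasks. MYC had 89.9, 357 and 275 CPM in acute libraries and 588, 579 and 665 CPM in parental libraries. The order of the acute libraries, lowest with the drug alone and highest with FGF2, was that of 35 of the 36 genes. It rests on 1 library per state, and the share of all genes tested with this order was not counted. MYC fell in acute against parental cells (−1.34 ± 0.32, adjusted p = 0.0022), rose in early against acute cells (1.32 ± 0.28, adjusted p = 0.000877), and had −0.02 ± 0.26 (adjusted p = 0.957) in early against parental cells. Whether MYC had a part in the levels of the 37 genes was not tested.

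Since the genes fell together, their promoters were read for the E-box CACGTG, a word that MYC and other factors bind and that reads the same on both strands. Promoters of 31 of the 37 genes were in the RefSeq table used (GRCh38.p14, 250 bases before to 50 after a gene start). The word occurred in a promoter of 15 of those 31 genes (48.4%), and in 12.6% of 10551 tested genes and 8.78% of all 27305 genes of the table. Of 16 occurrences 14 lay between 60 bases before and 50 after the start. The ETS core CCGGAA, on either strand, whose letters cannot overlap those of the E-box, occurred in 16 of 31 genes (51.6%), against 34.2% of tested genes. A match is only a word in the sequence and not a bound site. The windows below run 5′ to 3′ from 60 bases before to 30 after a RefSeq start, are shown because they carry the E-box beside the start in box C/D, small subunit and large subunit genes and in DDX21, and have the E-box in capitals. The DDX21 window is drawn at its second RefSeq start listed, and the promoter of its first start did not hold the E-box. The table's promoters of the 3 RNA polymerase I genes and of NHP2 did not hold it, and the E-box of GAR1 lies 32 bases after a start, outside the window. In FBL and RRP9, box C/D genes, it lies 7 bases after and 5 before the start.
FBL, chr19:39846350-39846439, minus strand: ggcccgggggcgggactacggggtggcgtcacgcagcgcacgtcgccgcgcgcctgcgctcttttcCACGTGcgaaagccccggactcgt
RRP9, chr3:51941875-51941964, minus strand: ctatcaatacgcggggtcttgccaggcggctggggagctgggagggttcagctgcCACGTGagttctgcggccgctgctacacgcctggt
WDR43, chr2:28894607-28894696, plus strand: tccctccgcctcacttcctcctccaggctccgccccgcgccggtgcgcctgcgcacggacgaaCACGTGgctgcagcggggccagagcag
NOP14, chr4:2963377-2963466, minus strand: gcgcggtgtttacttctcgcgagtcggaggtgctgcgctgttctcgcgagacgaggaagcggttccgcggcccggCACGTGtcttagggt
UTP20, chr12:101280045-101280134, plus strand: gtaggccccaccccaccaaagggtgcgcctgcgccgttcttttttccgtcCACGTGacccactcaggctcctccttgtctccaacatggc
PES1, chr22:30591881-30591970, minus strand: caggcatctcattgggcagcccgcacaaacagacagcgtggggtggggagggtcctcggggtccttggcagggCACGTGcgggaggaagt
MRTO4, chr1:19251745-19251834, plus strand: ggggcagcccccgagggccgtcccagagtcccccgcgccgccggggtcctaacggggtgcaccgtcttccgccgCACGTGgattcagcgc
DDX21, chr10:68956587-68956676, plus strand: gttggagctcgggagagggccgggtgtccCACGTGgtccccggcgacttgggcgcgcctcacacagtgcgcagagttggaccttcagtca

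The E-box was not found in any promoter of NCL, NPM1, NOP56 or DKC1 in the table. Their windows, drawn the same way with the first RefSeq start listed, are given for comparison and hold no capitals. No relation between the word and the size of the fall was tested.
NCL, chr2:231464455-231464544, minus strand: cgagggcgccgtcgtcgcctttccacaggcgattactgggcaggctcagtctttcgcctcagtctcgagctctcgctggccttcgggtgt
NPM1, chr5:171387789-171387878, plus strand: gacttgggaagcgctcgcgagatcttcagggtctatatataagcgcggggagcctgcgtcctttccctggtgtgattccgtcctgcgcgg
NOP56, chr20:2652572-2652661, plus strand: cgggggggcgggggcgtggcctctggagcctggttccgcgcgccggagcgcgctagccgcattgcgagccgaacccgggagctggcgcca
DKC1, chrX:154762804-154762893, plus strand: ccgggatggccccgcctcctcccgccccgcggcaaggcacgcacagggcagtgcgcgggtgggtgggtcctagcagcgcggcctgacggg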

How the data were processed

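Stranded poly(A) RNA-seq libraries of MOLM14 cells were quantified with kallisto, and GRCh37 is named as the build, per the submitters' processing notes. The values the authors deposited are estimated counts for each Ensembl gene and library, without depth normalization. How transcripts were summed to genes is not given in the sources used here. Names were found for 84.9% of 39293 identifiers, and the unnamed ones held 4.63% to 5.53% of a library's counts. The estimated counts were rounded here. Genes were filtered with filterByExpr (minimum count 10, minimum total 15), scaled with TMM and fitted over 14 libraries in 4 arms with the robust quasi-likelihood test of edgeR 4.0.16 in R 4.3.3, with Benjamini-Hochberg adjustment at 0.05 over 15756 genes. Early against another arm means the average of both early arms. DESeq2 1.42.0, limma-voom (limma 3.58.1), other scalings, no filter, fewer libraries and leaving out each library in turn were alternatives. The scripts were tested on simulated counts. Levels per kilobase divide CPM by the mean length of GENCODE 29 protein-coding transcripts. Promoter sequences are RefSeq's. Figures used matplotlib 3.10.9 in Python 3.11.15.

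The 37 genes, the lists and the tests were chosen with earlier results of these data known. Every one of the 37 genes is named. Values in each library are given for a fixed set (FBL, NOP56, DKC1, NCL, NPM1, POLR1B), for the 3 largest and 3 smallest acute changes, and for the 4 smallest adjusted p in each ligand's early arm against parental cells and between the early arms. Of other lists up to 3 genes with the smallest adjusted p, and up to 3 in the other direction, are named. Libraries of an arm differed by at least 5.40 times the counting error (mean squared difference), and each was counted as 1 sample. Such a difference does not show that they are independent cultures, and the acute libraries also differed in ligand.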

Additional observations from a re-analysis of the deposited data

Results flagged for a closer look

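In each early arm of 4 flasks, a flask was set apart where its gap to the nearest other flask took up more of the arm's range than Dixon's 95% limit for 4 values allows. Of 74 groups (37 genes in 2 arms) 6 met it, where chance gives about 1 in 20. NOP58 was highest in FL early replicate 4 at 181.3 CPM, and NOLC1 was highest in the same flask at 427.9 CPM. WDR12 was highest in FL early replicate 2 at 106.8 CPM. MRTO4 was lowest in FGF2 early replicate 1 at 118.2 CPM. BOP1 was highest in FGF2 early replicate 1 at 1.599 CPM and in FL early replicate 2 at 12.36 CPM. No gene's change against parental cells differed between the FGF2 and FL early arms in the test of that difference over all 14 libraries. With only the libraries compared 2 genes passed (POLR1A and POLR1B), where 453 of 14512 genes tested were higher with FGF2 and 1011 lower. With the replicate number as a block 4 passed (NOP56, POLR1A, POLR1B and UTP20), where 669 of 15249 were higher and 1279 lower.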

How the results depend on the processing

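In acute against parental cells all 37 genes fell under every scaling, filter, tool and left-out library tried, the exception being BOP1 with the drug alone as the acute arm. In early against acute cells 36 rose throughout. With the drug alone as the acute arm, a single library assumed to vary like the other arms, the medians were −1.92 and 1.53. Leaving out a library gave medians of −1.55 to −1.16 and of 0.91 to 1.21. Under upper quartile scaling the median of all genes was 0.18 in acute against parental cells and −0.16 in early against acute cells, and the split of all calls was 5772 higher and 4232 lower, against 5086 and 4773 with TMM, and in early against acute cells 4292 higher and 6208 lower, against 5056 and 5342.

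Calls against parental cells depended on the libraries in the fit, and the cause was not tested. On only the libraries compared, calls were 29 in early, 26 in FGF2 early and 22 in FL early against parental cells, and 2 in FGF2 early against FL early. Of all genes tested, 2764 of 15249, 3564 of 14749 and 1168 of 14819 fell against parental cells, and 453 of 14512 were higher with FGF2 than with FL. With the replicate number as a block the calls were 29, 21, 25 and 4. Of 15249 genes tested with the block, 2371, 2440 and 1583 fell against parental cells, and 669 were higher with FGF2 than with FL. The replicate numbers are not known to pair the samples, since the correlations of same-numbered libraries' deviations ran from −0.09 to 0.07. Without FL early replicates 1 and 4 together there were 10 calls in early and 3 in FL early against parental cells and 2 between the early arms. Of 16161 genes tested there, 2527 fell in early and 1221 in FL early against parental cells. Between the early arms 1299 of them were higher with FGF2 and 2199 lower. DESeq2 gave 16 calls in FL early against parental cells, where 2085 of 15738 genes tested fell. Leaving out 1 library gave 5 to 18 calls in early, 4 to 9 in FGF2 early and 3 to 11 in FL early against parental cells, and 0 to 1 between the early arms. Over all genes tested in those fits, 1549 to 2582 fell in early, 1963 to 2311 in FGF2 early and 717 to 1535 in FL early against parental cells. Between the early arms 303 to 1214 were higher with FGF2 and 1042 to 2060 lower. No result changed sign while called.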
